A study of Ovis aries with 23 samples.

Results

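Infarct tissue of adolescent sheep was compared with infarct tissue of fetal sheep, using 6 of the 23 arrays of the series. The groups were taken from the sample labels, 3 arrays of adolescent infarct and 3 of fetal infarct. The fetal animals were at day 105 of gestation and the adolescent animals were 6 months old. In both, the second diagonal branch of the left anterior descending coronary artery was tied, and heart tissue was collected 3 days later from the infarct, the border zone and the remote zone away from it. Hearts of sham-operated animals of each age served as controls (3 fetal arrays and 2 adolescent arrays, with no ligation). Each RNA was labelled with 1 dye and hybridised to an Agilent ovine oligonucleotide array. The labels name no strain, and they do not say which arrays came from the same animal. What the p-values weigh is thus how far these arrays scatter, which may in part be technical scatter.

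Tying a coronary branch cuts off the blood supply of the muscle downstream of it. Heart muscle cells there die, blood leukocytes enter to remove them, and fibroblasts lay down matrix. After birth this ends in a collagen scar, whereas fetal sheep hearts of early gestation are known to heal with little scar and with dividing muscle cells. The comparison asks how the transcript content of the injured tissue differed between these ages on day 3. Age itself changes the heart, so the same age difference in remote muscle, where no branch was tied upstream, is given beside many of the infarct values, and that in sham and border tissue beside a few.

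The adolescent infarct arrays ran brighter than the fetal ones, with overlapping ranges. The 75th percentile of signal ran from 757.2 to 1345 on the adolescent infarct arrays and from 487 to 865 on the fetal ones, in arbitrary fluorescence units. Between 78.28% and 79.17% of probes were well above background on the adolescent infarct arrays, against 73.57% to 79.83% on the fetal ones. Adolescent remote arrays were dimmer (306.8 to 374.5) than fetal remote arrays (489.7 to 681.6), and the adolescent sham arrays were the dimmest (128.9 and 246.4). The part of brightness in the differences below was not tested. RNA integrity numbers lay between 7.6 and 9.5 over all samples, per the labels. Every slide held 1 array of each infarct group, and each group lay at its own position on the slides, so an effect of position cannot be told apart from group.

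Below, a level is the log2 signal minus that array's 75th percentile, so 0 means as bright as that percentile, and levels are compared only within a probe. A difference is adolescent minus fetal in log2 units with its standard error (SE), n = 3 arrays a side. The SE and p-value use a spread pooled over all 8 groups, not the scatter of the 6 infarct arrays alone. In a fit of only the infarct arrays, 23 of 85 passing genes followed by name missed the threshold. A probe passed the test at a Benjamini-Hochberg adjusted p under 0.05 over all 12451 probes tested.

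Of the 12451 probes, 2171 (17.4%) passed in the infarct comparison. They divided into 868 that were higher in the adolescent infarct (6.97%) and 1303 that were lower (10.5%), and the median difference over all probes was −0.07. The 3 arrays of one age all lay above the 3 of the other for 4490 probes (36.1%). Among the 861 named genes that were tested, 184 passed (21.4%), 79 higher (9.18%) and 105 lower (12.2%), with a median difference of −0.02. The counts of list members below are to be read beside these shares. The 105 lower genes each had the same sign on all 3 slides, and so did 78 of the 79 higher ones. These genes had passed on the same arrays, so this was largely set by their choice. The share over all named genes was not taken, and nothing is read from it. With a further background correction of the raw signals (normexp), 363 probes passed. Among 85 passing genes followed by name, 31 kept their call with it: MYH7, MB, TPM1, PPARGC1A, CPT1B, SLC25A4, ATP5PD, ENO3, PYGM, PRKAA2, GJA1, AGTR1, NR3C2, IGF2, IGFBP2, IGF2R, CDKN1C, BMP7, BMP6, INHA, SAA3, PTGS1, NFKBIA, LYZ, CD3E, BAC5, CATHL1B, the globins HBB and HBB-fetal, the lysozyme LOC443321 and the light chain LOC100037688. The other 54 did not. In remote muscle 3882 of all probes (31.2%) and 275 of the 861 named genes (31.9%) differed with age, 142 of the named genes being higher (16.5%) and 133 lower (15.4%) in the adolescent. The gap, meaning the age difference in infarct minus the age difference in remote muscle, passed for 2647 of all probes (21.3%; 8.88% positive and 12.4% negative). Among named genes it passed for 174 (20.2%), 67 positive (7.78%) and 107 negative (12.4%). Of 50 passing gaps followed by name, 13 kept their call with normexp: MYH7, MB, TPM1, CPT1B, SLC25A4, ENO3, PYGM, SLC2A4, PRKAA2, BMP7, PCNA, H2AZ1 and BCL2.

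**Figure D1:**
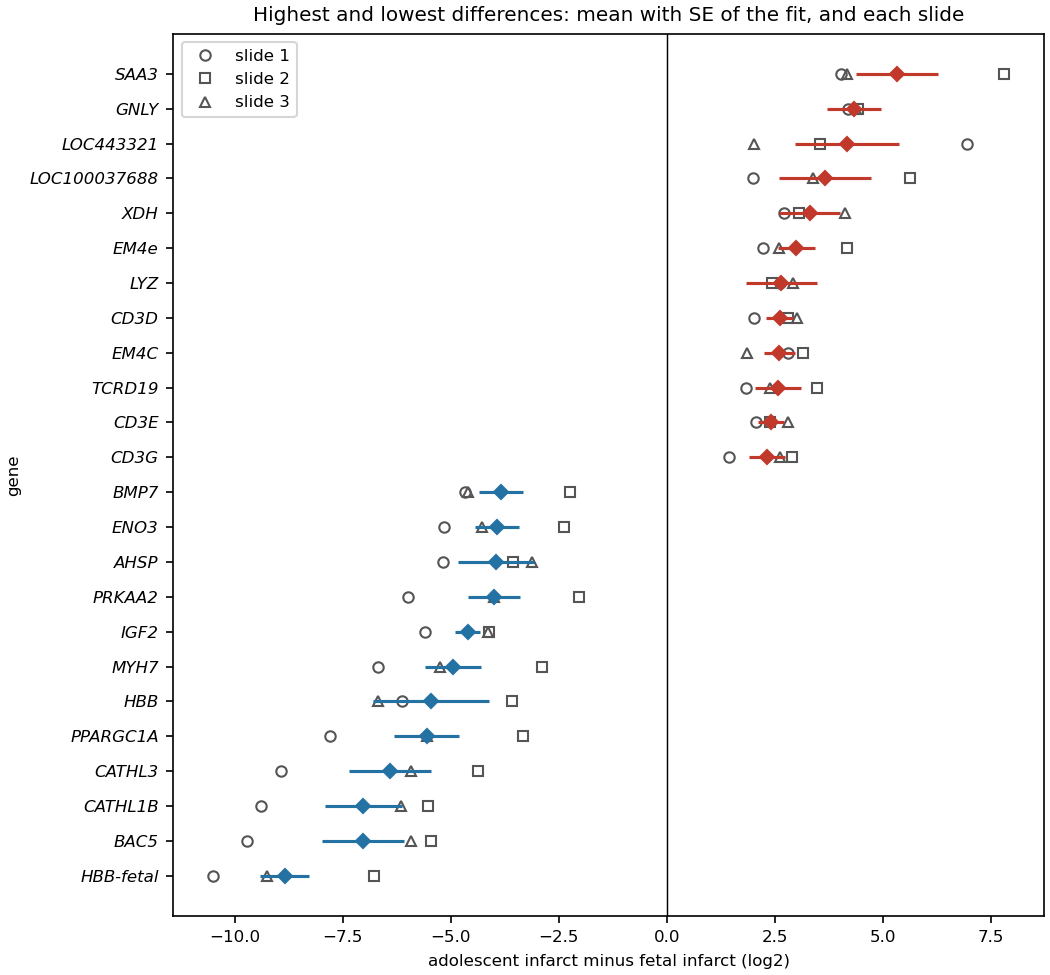
Adolescent infarct minus fetal infarct (log2) for the 12 named genes furthest up and the 12 furthest down among those past the threshold with the same sign on all slides; open symbols are the differences within slides 1 to 3 and diamonds are the fitted mean ± SE. The differences run from 5.33 for SAA3 to −8.84 for the fetal beta globin. Every open symbol of a gene lies on the same side of 0 because the choice of genes required it.

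The probes of MYH7 and SAA3 are shown because these genes stand near the opposite ends of the comparison. Each probe is a strand of 60 bases matching the transcript, printed 5′ to 3′ as the array design gives it, in lower case with no part marked. The first gene encodes the beta heavy chain of cardiac myosin, the motor of the heart muscle filament, and the second encodes an acute phase protein made at sites of inflammation.
MYH7: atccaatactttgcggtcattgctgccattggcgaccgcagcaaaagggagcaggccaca
SAA3: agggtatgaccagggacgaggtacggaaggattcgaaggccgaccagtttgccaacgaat
MYH7 was far dimmer and SAA3 far brighter in adolescent than in fetal infarct. Close relatives of both genes exist in mammals, so part of either signal may come from a relative, which was not tested.

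The contractile filament genes MYH7 and TPM1, and the myoglobin gene, were lower in the adolescent infarct. MYH7 stood at −3.78, −0.55 and −4.10 on adolescent infarct arrays 1 to 3 and at 2.90, 2.35 and 1.14 on the fetal ones. The groups did not overlap, and adolescent infarct 2 kept more signal than the other two adolescent arrays. Outside the infarct the gene ran from 4.90 to 5.02 in adolescent remote and from 3.37 to 3.49 in fetal remote muscle. MYH7 was 30.7-fold lower (log2 difference −4.94 ± 0.65 SE, adjusted p = 8.04e-05). Myoglobin (MB), which stores oxygen in muscle, had levels of 0.21, 3.99 and 2.14 against 6.26, 5.64 and 5.41, and was 12.6-fold lower (−3.66 ± 0.60, adjusted p = 0.000444). Tropomyosin 1 (TPM1), which lies along the thin filament, was 5.26-fold lower (−2.39 ± 0.32, adjusted p = 9.35e-05). Adolescent infarct 2 was again the highest of its group for both.

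The contractile list also holds MB and the chaperone CRYAB, which are not filament proteins. Of its 5 genes tested, 3 were lower, none was higher, and NEB and CRYAB did not pass. The list's median difference was −2.39, against −0.07 over all probes. In remote muscle the same genes pointed the other way. MYH7 was 1.51 ± 0.65 (adjusted p = 0.0853) and MB 1.43 ± 0.60 (adjusted p = 0.0752), neither past the test, and TPM1 was higher in the adolescent (1.22 ± 0.32, adjusted p = 0.00836). The gap between infarct and remote was negative and passed for each of the 5 genes, with −6.45 ± 0.92 for MYH7 (adjusted p = 0.000236). Within adolescent hearts MYH7 was 7.77 log2 units below its remote mean in the infarct, and within fetal hearts 1.31 units below. In these bulk tissue samples, fewer muscle cells and less RNA per muscle cell cannot be told apart. Averaged over the 5 genes and centred on each gene's mean over all arrays, the list lay between −4.03 and −1.85 in adolescent infarct and between −1.30 and −0.36 in fetal infarct. Without adolescent infarct 2, or without fetal infarct 3, 4 of the 5 genes were lower. Of the other heart muscle markers chosen as defining, such as the cardiac troponins and actin, none was tested under its name here. Skeletal muscle markers, which could report chest wall in a sample, gave 1 lower of 7 genes (PYGM), and MYH1 was not well above background on any infarct array.

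Of 7 genes of fatty acid oxidation, 3 that set the fuel use of muscle were lower too. PPARGC1A, a coactivator that drives mitochondrial production, had levels of −8.26, −5.25 and −8.62 in adolescent infarct and −0.47, −1.93 and −3.08 in fetal infarct. Its probe was above background on 1 of the 3 adolescent arrays, and the fitted difference was −5.55 ± 0.75 (adjusted p = 9.4e-05). CPT1B, which admits long-chain fatty acids to mitochondria in muscle, was 7.05-fold lower (−2.82 ± 0.37, adjusted p = 8.35e-05). PPARA, a nuclear receptor that turns on fat burning, was 2.09-fold lower (−1.06 ± 0.26, adjusted p = 0.00998), a call that ended without fetal infarct 1 (adjusted p = 0.0563). The others, CPT1A, SLC25A20, LPL and UCP3, did not pass, 3 of the 7 differences were positive, and the list's median was −0.06 (0.13 with quantile scaling). In remote muscle CPT1B differed by 0.85 ± 0.37 (adjusted p = 0.0932), and PPARA was higher in the adolescent (0.76 ± 0.26, adjusted p = 0.0354). In the deposited values, the normalised log2 table of the authors, PPARGC1A and PPARA missed the threshold (adjusted p = 0.0578 and 0.288).

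Oxidative phosphorylation, the making of ATP by mitochondria, had 7 of 9 genes lower and 1 higher, with a median of −1.05. The heart and muscle form of the ADP/ATP carrier, SLC25A4, had levels of 3.42, 5.24 and 3.97 against 6.93, 6.91 and 6.26. It was 5.61-fold lower (−2.49 ± 0.33, adjusted p = 8.33e-05). SLC25A5, the form of the same carrier found in dividing and non-muscle cells, went the other way, at 3.69, 3.78 and 4.11 against 2.89, 2.85 and 3.11 (0.91 ± 0.28, adjusted p = 0.0316). In remote muscle this pair was reversed, SLC25A4 being higher (1.17 ± 0.33, adjusted p = 0.0119) and SLC25A5 lower (−1.38 ± 0.28, adjusted p = 0.00119) in the adolescent. The ATP synthase subunits ATP5PD (−1.50 ± 0.31) and ATP5MC1 (−1.07 ± 0.21) and the cytochrome oxidase subunit COX5A (−1.97 ± 0.39) were among the lower genes. SLC25A5 was no longer called without any infarct array other than fetal infarct 3, and the lower genes then numbered 6 or 7. With normexp 2 of the 9 were lower.

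Of 18 genes of glycolysis and glucose transport, 9 were lower, none was higher, and the median was −0.85. The muscle enolase ENO3 stood at −3.41, −0.40 and −2.88 in adolescent and 1.74, 1.98 and 1.39 in fetal infarct, a 15.2-fold difference (−3.93 ± 0.51, adjusted p = 6.66e-05). Muscle glycogen phosphorylase PYGM, which releases glucose from glycogen, was 6.77-fold lower (−2.76 ± 0.35, adjusted p = 5.41e-05), and muscle phosphofructokinase PFKM 4.78-fold lower (−2.26 ± 0.41, adjusted p = 0.00105). The widely expressed enzymes ALDOA (−1.28 ± 0.20) and GAPDH (−0.75 ± 0.16) were also lower, by less. The insulin-regulated glucose carrier SLC2A4 did not pass (−1.79 ± 0.68, adjusted p = 0.0756), while it was higher in adolescent remote muscle (3.04 ± 0.68, adjusted p = 0.00252). Without fetal infarct 1, 6 of the 18 were lower, and with normexp 3 were. The gap between infarct and remote was −5.53 for ENO3, −4.83 for SLC2A4, −4.45 for PFKM and −4.39 for PYGM, and each passed.

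The energy sensor subunit PRKAA2, a catalytic part of AMP-activated kinase found in muscle, was lower by 4.01 ± 0.60 log2 units (adjusted p = 0.000217), with 1 of 3 adolescent infarct arrays above background. GJA1, the main gap junction protein that couples heart muscle cells, had levels of −0.30, 0.16 and −1.18 against 1.62, 1.77 and 1.20, a 3.93-fold difference (−1.97 ± 0.31, adjusted p = 0.000294). It was lower in adolescent remote muscle as well (−1.03 ± 0.31, adjusted p = 0.0163). ATP1B1, a subunit of the sodium pump, was 2.25-fold lower in the infarct (−1.17 ± 0.25, adjusted p = 0.00421).

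**Figure D2:**
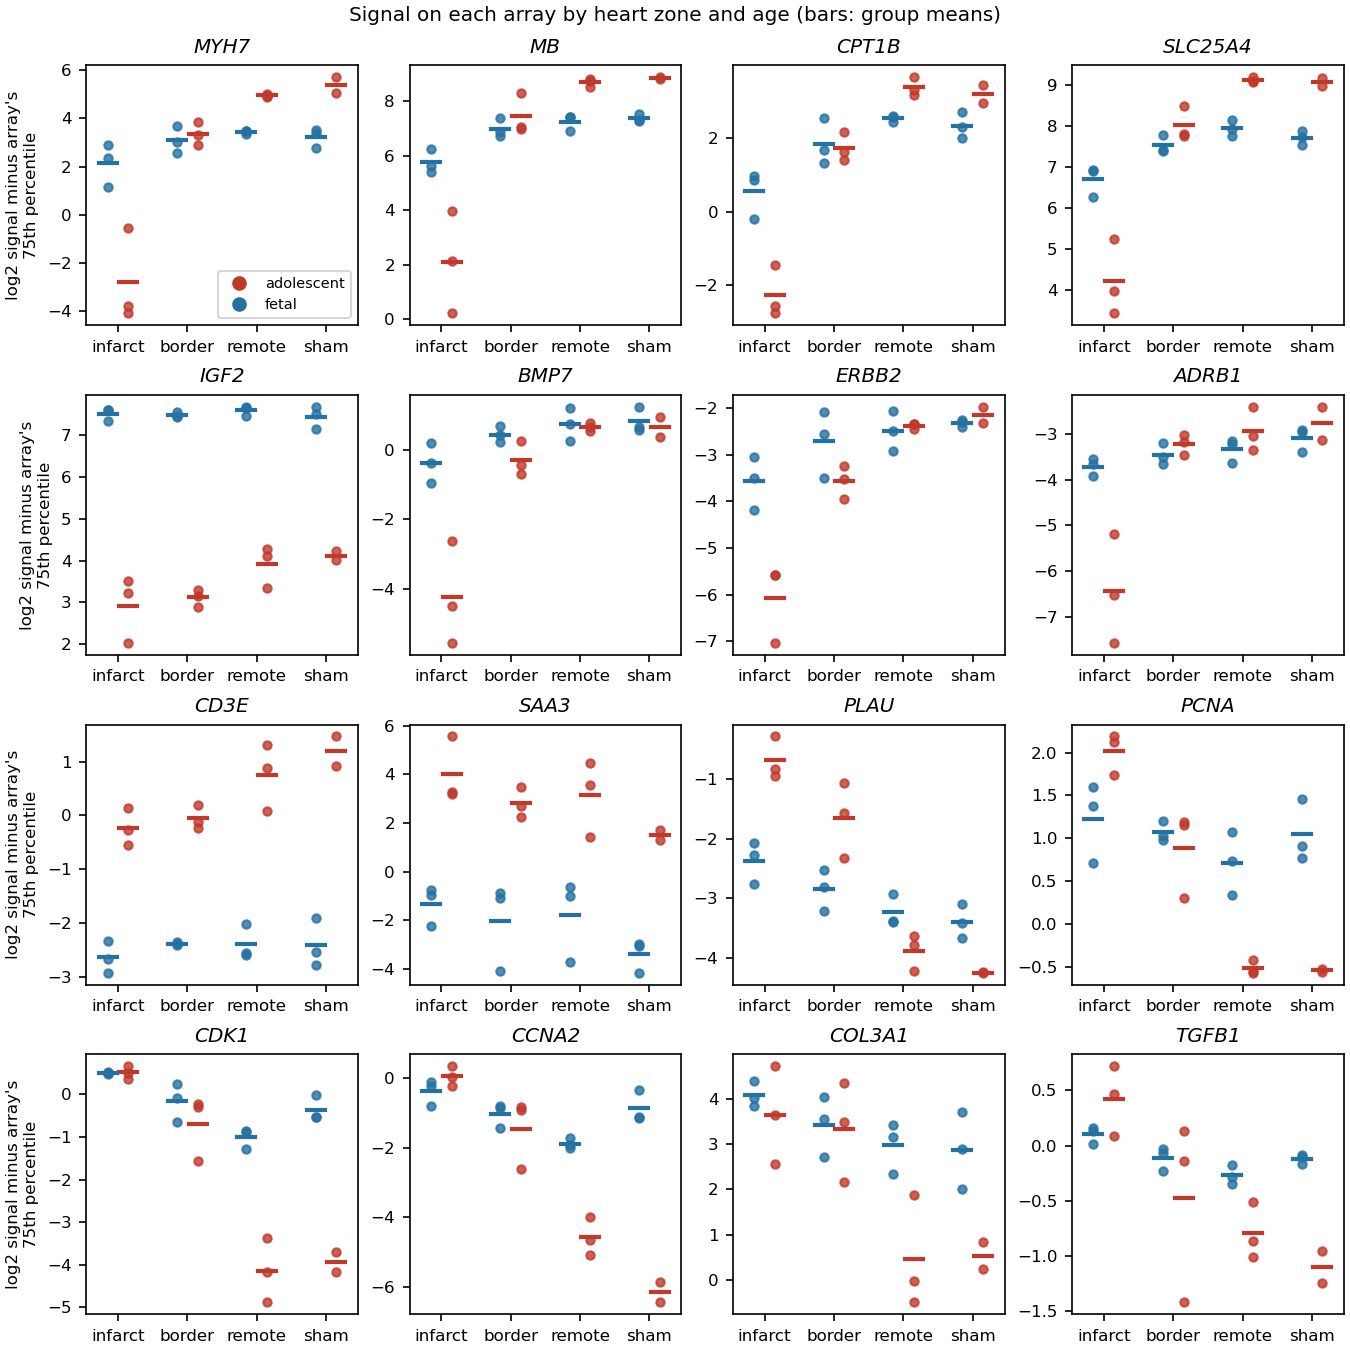
Level of 16 genes on every array, as log2 signal minus the array's 75th percentile, by tissue (sham, remote, border, infarct) and age (adolescent red, fetal blue); points are arrays and bars are group means. The adolescent infarct arrays lie lowest of all groups for MYH7 and MB, whereas IGF2 separates the ages in every tissue.

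Several receptors for hormones and catecholamines were also lower. The contractile list moved with them, and its part in these differences was not tested. The beta-1 adrenergic receptor ADRB1, through which noradrenaline raises heart rate and force, stood at −7.57, −5.19 and −6.52 in adolescent infarct and −3.93, −3.55 and −3.67 in fetal infarct. The difference was −2.71 ± 0.41 (adjusted p = 0.00023), with 1 of 3 adolescent arrays above background. Both angiotensin receptors were lower, AGTR1 by 2.09 ± 0.35 (adjusted p = 0.000534) and AGTR2 by 2.33 ± 0.37 log2 units (adjusted p = 0.000379), and both were lower in remote muscle too (−1.47 ± 0.35 and −3.59 ± 0.37). Endothelin 1 (EDN1), a vessel-constricting peptide, was lower by 1.71 ± 0.42 (adjusted p = 0.00985), although its groups overlapped and the call ended without fetal infarct 1, fetal infarct 2 or adolescent infarct 3 (adjusted p from 0.0544 to 0.0651). On the brightest probes these 4 were the lower genes among 11 of the renin-angiotensin, adrenergic and natriuretic systems, and none was higher. EDNRA did not pass on its brightest probe, but a further probe was lower (−1.68 ± 0.34, adjusted p = 0.00277).

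The receptor for mineralocorticoids, NR3C2, was 5.04-fold lower in the adolescent infarct (−2.33 ± 0.34, adjusted p = 0.00015) and differed by −0.05 ± 0.34 in remote muscle. The enzyme HSD11B1, which regenerates active glucocorticoid inside cells, had levels of −0.09, 0.49 and 0.10 against −1.69, −1.82 and −1.95. It was 3.97-fold higher in the adolescent infarct (1.99 ± 0.43, adjusted p = 0.00455) and about as much higher in remote muscle (2.11 ± 0.43). On the brightest probes these were the 2 called genes among 11 of steroid and thyroid hormone action. The probes of ESR1 and PGR, receptors for oestrogen and progesterone, disagreed. Their brightest probes did not pass (−0.57 ± 0.44 and −0.23 ± 0.35). A further probe of each was above background on 3 adolescent and 0 fetal infarct arrays and was higher in the adolescent (adjusted p = 0.00478 for ESR1 and 1.61e-05 for PGR).

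Insulin-like growth factor 2 (IGF2), the main fetal growth factor, marked age in every tissue. Its levels were 2.02, 3.50 and 3.21 in adolescent infarct and 7.60, 7.61 and 7.35 in fetal infarct. That is a 24.5-fold difference (−4.61 ± 0.30, adjusted p = 2.7e-08), with −3.69 ± 0.30 in remote muscle and differences of means of −3.33 in sham and −4.38 in border tissue. The binding protein IGFBP2 was 9.58-fold lower (−3.26 ± 0.48, adjusted p = 0.00019), and likewise lower in remote muscle (−4.49 ± 0.48).

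The receptors of this axis were lower in the infarct. IGF2R, which clears IGF2 from the cell surface, was at −2.22, −1.65 and −4.22 against 0.37, 0.13 and −0.02 (−2.86 ± 0.43, adjusted p = 0.000217). INSR was lower by 1.16 ± 0.29 and IGF1R by 1.55 ± 0.42 log2 units (adjusted p = 0.011 and 0.0167). INSR lost its call without adolescent infarct 3 (adjusted p = 0.0642), and IGF1R without fetal infarct 1 or 2 or adolescent infarct 3 (0.0773 to 0.098). Its other probes read −0.37 and −1.14 and did not pass. The binding proteins IGFBP4 (0.78 ± 0.25, adjusted p = 0.0408) and IGFBP6 (0.78 ± 0.23, adjusted p = 0.025) were higher. In all, 5 of 11 genes of the axis were lower and 2 were higher, and the count of higher genes was 0 without fetal infarct 1 or 2 or adolescent infarct 1 or 3.

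Imprinted genes are expressed from 1 parental copy, and many of them are tied to fetal growth. The list of such genes used here overlaps with that of the axis, and imprinting of its members in sheep heart was not tested. Of 5 tested, IGF2, IGF2R and CDKN1C were lower and DCN was higher. CDKN1C, an inhibitor of the cell cycle, had levels of 0.75, 1.44 and 1.10 against 4.05, 3.41 and 3.25 (−2.47 ± 0.34, adjusted p = 0.000101). Its remote difference was −0.55 ± 0.34, and the gap between infarct and remote passed (−1.92 ± 0.48, adjusted p = 0.00852).

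Ligands of the TGF beta family, which steer development, fibrosis and immune control, were lower in the adolescent infarct where they passed at all. BMP7, a ligand known to counter fibrosis, stood at −4.50, −2.62 and −5.57 against 0.18, −0.37 and −0.97. It was 14.3-fold lower (−3.84 ± 0.51, adjusted p = 8.35e-05), did not pass in remote muscle (−0.07 ± 0.51), and the gap between them passed (−3.77 ± 0.72, adjusted p = 0.00153). The inhibin alpha subunit INHA was 11.7-fold lower (−3.55 ± 0.41, adjusted p = 2.34e-05), BMP6 3.17-fold (−1.66 ± 0.33, adjusted p = 0.00214) and TGFB2 2.64-fold (−1.40 ± 0.37, adjusted p = 0.0154).

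The receptor ACVR1 (−1.31 ± 0.32, adjusted p = 0.00982) and the inhibitory mediator SMAD7 (−1.13 ± 0.26, adjusted p = 0.00677) completed the 6 lower genes among 26, with none higher. The median of the list was −0.65. TGFB1, the ligand best known for driving scar formation, had levels of 0.72, 0.08 and 0.47 against 0.02, 0.13 and 0.16, which overlapped (0.32 ± 0.28, adjusted p = 0.451). Leaving out single infarct arrays gave between 4 and 9 lower genes in this list, the 4 coming without fetal infarct 1 or adolescent infarct 3 and the 9 without adolescent infarct 2.

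Developmental signalling showed the same direction, with 5 of 19 genes lower and none higher (median −0.71). ERBB2, the co-receptor for neuregulin in heart muscle growth, was at −5.57, −5.58 and −7.04 against −3.04, −3.49 and −4.19 (−2.49 ± 0.39, adjusted p = 0.000338), with 2 of 3 adolescent arrays above background. The fibroblast growth factor FGF1 (−1.81 ± 0.42, adjusted p = 0.00688), its receptor FGFR1 (−1.47 ± 0.26, adjusted p = 0.000958), the Wnt ligand WNT5A (−1.04 ± 0.26, adjusted p = 0.0103) and BMP7 were the others. For ERBB2, FGF1 and FGFR1 the gap passed, at −2.61, −3.10 and −1.26, although that of FGFR1 ended without fetal remote 2 or 3 or adolescent remote 3 (adjusted p from 0.0509 to 0.0585). For WNT5A it did not (0.29 ± 0.37), since the gene was also lower in adolescent remote muscle. In the deposited values ERBB2 missed the threshold (adjusted p = 0.0891).

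Among 21 genes of vessel growth, 4 were lower and none was higher. They were FGF1, FGFR1, the growth factor receptor EGFR (−1.17 ± 0.35, adjusted p = 0.0276) and VEGFA, the chief growth signal for endothelium. VEGFA had levels of −0.32, −0.29 and −1.66 against 2.26, 1.28 and −0.60, so that the groups overlapped (−1.73 ± 0.54, adjusted p = 0.0346). Without fetal infarct 1, fetal infarct 2 or adolescent infarct 3, both VEGFA (adjusted p from 0.119 to 0.197) and EGFR (0.0989 to 0.141) lost their calls, which left 2 of 21. The adhesion protein PECAM1 was higher in the adolescent infarct (0.84 ± 0.21, adjusted p = 0.011), except without fetal infarct 1 (adjusted p = 0.0556). It was the 1 higher gene among 11 endothelial markers, of which EDN1 was lower. Of the 11 differences 4 were positive, and their median was −0.52. PECAM1 was also the 1 higher gene among 13 of leukocyte adhesion, a list with a median of 0.40. On their brightest probes the vessel receptors KDR, FLT1, TEK and TIE1 did not pass. The probes of KDR disagreed, as a further one was lower (−0.86 ± 0.29, adjusted p = 0.0487). Others read −1.08 and −0.71 and did not pass.

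None of 10 genes of collagen, the main content of a scar, passed on day 3 in the limma fit (3 were lower at an unadjusted p under 0.05), and all 10 differences were negative (median −0.51). Without adolescent infarct 2, 2 of the 10 were lower, without fetal infarct 3, 1 was, and without adolescent infarct 3 the median was 0.09. With the slide as a replicate block, 2 of the 10 were lower. The deposited values gave 1 lower of 8. COL1A1 had levels of 1.83, 1.86 and 0.30 against 2.01, 1.40 and 1.07, and COL3A1 of 3.64, 4.74 and 2.57 against 4.40, 4.02 and 3.86. Both overlapped (−0.16 ± 0.50 and −0.45 ± 0.66, adjusted p = 0.852 and 0.675). In remote muscle, by contrast, 6 of the 10 collagens were lower in the adolescent, COL3A1 by 2.53 ± 0.66 log2 units. Within adolescent hearts COL3A1 was 3.20 units above its remote mean in the infarct, and within fetal hearts 1.12 units above, but the gap did not pass (2.08 ± 0.93, adjusted p = 0.121).

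The fibrosis mediator CCN2 (−0.06 ± 0.61) and VIM, the intermediate filament of fibroblasts and other mesenchymal cells (−0.17 ± 0.30) had overlapping groups. Decorin (DCN), a small proteoglycan that coats collagen fibrils, was 1.56-fold higher (0.64 ± 0.17, adjusted p = 0.0178), with a call that ended without fetal infarct 2 (adjusted p = 0.0901). Against 6.97% of all probes, 1 of 14 matrix proteases and inhibitors was higher. It was the urokinase plasminogen activator PLAU, which starts fibrin and matrix breakdown, at −0.83, −0.29 and −0.95 against −2.76, −2.28 and −2.08 (1.68 ± 0.29, adjusted p = 0.000784). Its remote difference was −0.64 ± 0.29, and the gap passed (2.32 ± 0.41, adjusted p = 0.000934), but was 0.47 with normexp (adjusted p = 0.686). The urokinase receptor PLAUR (1.68 ± 0.76, adjusted p = 0.135) and the inhibitor TIMP1 (1.03 ± 0.65, adjusted p = 0.282) did not overlap between the groups and did not pass. Groups did not overlap for 36.1% of all probes.

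Genes of innate sensing and the acute phase were higher where they passed, 5 of 21, with a median of 1.10. SAA3 had levels of 3.27, 5.57 and 3.20 in adolescent infarct and −0.75, −2.24 and −0.96 in fetal infarct, a 40.2-fold difference (5.33 ± 0.95, adjusted p = 0.00095). It was also higher in remote muscle (4.92 ± 0.95, adjusted p = 0.000862), and by means in sham (4.87) and border tissue (4.81). PTGS1, the constitutive enzyme of prostaglandin synthesis, was 3.52-fold higher (1.81 ± 0.31, adjusted p = 0.000628) and differed by −0.09 ± 0.31 in remote muscle, a gap that passed (1.91 ± 0.44, adjusted p = 0.00514).

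NFKBIA, the inhibitor induced by NF-kappa-B, was 2.28-fold higher (1.19 ± 0.24, adjusted p = 0.00233), and its remote difference did not pass (0.58 ± 0.24, adjusted p = 0.0708). The bacterial wall sensor NOD2 (2.03 ± 0.53, adjusted p = 0.0146) and the pentraxin PTX3 (1.67 ± 0.52, adjusted p = 0.0344) were higher too, NOD2 losing its call without adolescent infarct 1 or fetal infarct 2 (adjusted p = 0.0535 and 0.0838). Inducible PTGS2 (0.53 ± 0.43) and the sensor TLR2 (1.73 ± 0.75, adjusted p = 0.121) did not pass. The count was 3 without adolescent infarct 1 or fetal infarct 2, and 11 of 14 in the deposited values.

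Of 17 cytokines and chemokines 1 was higher and 1 was lower, against 6.97% and 10.5% of all probes. Tumour necrosis factor (TNF) had levels of 0.63, −0.07 and −0.20 against −1.53, −2.13 and −0.96 (1.66 ± 0.49, adjusted p = 0.0267), a call that ended without fetal infarct 1, fetal infarct 2 or adolescent infarct 1 (adjusted p from 0.0734 to 0.125). TNF was higher in adolescent remote muscle as well (2.29 ± 0.49, adjusted p = 0.00187). IL1A, an alarm cytokine released by damaged cells, was 6.09-fold lower, at −2.53, −1.79 and −1.79 against 0.84, 0.75 and 0.11 (−2.61 ± 0.55, adjusted p = 0.00376), and lower in remote muscle as well (−2.03 ± 0.55). IL1B (0.97 ± 0.52), IL6 (0.76 ± 0.98), CXCL8 (1.87 ± 0.93) and IL10 (1.43 ± 0.50) did not pass. Within each age IL6 was far above its remote mean in the infarct, by 5.24 log2 units in adolescent and 6.77 in fetal hearts.

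Macrophage and monocyte markers lay higher in the adolescent infarct for 14 of 15 genes, with a median of 1.24 (1.15 with normexp), and 2 passed. In remote muscle 4 of the 15 were higher in the adolescent and the median was 1.46, and the median gap was −0.01. The averaged list lay between 1.82 and 2.31 in adolescent infarct and between 0.67 and 1.49 in fetal infarct. Lysozyme (LYZ), an antibacterial enzyme of these cells, had levels of 3.52, 2.32 and 3.83 against 0.91, −0.12 and 0.92 (2.65 ± 0.82, adjusted p = 0.0338). The lysosomal protease LGMN was 1.35 ± 0.46 higher (adjusted p = 0.0498), and the receptor CD14 did not pass (1.30 ± 0.50, adjusted p = 0.0821). Neither call held without fetal infarct 1, fetal infarct 2, adolescent infarct 1 or adolescent infarct 3, and the deposited values gave 8 of 15. In remote muscle LYZ differed by 2.05 ± 0.82 (adjusted p = 0.0668) and LGMN by 1.57 ± 0.46 (adjusted p = 0.0147). Of 12 genes of lysosome and phagocytosis 3 were higher, LYZ, LGMN and HEXA, and the count went from 0 without fetal infarct 2 to 7 without fetal infarct 3. The median was 0.87 in the infarct and 0.85 in remote muscle, where 4 were higher.

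The T cell genes CD3D, CD3E and CD3G were higher in the adolescent in both infarct and remote muscle. They encode CD3 chains, which carry the signal of the T cell receptor. CD247, the zeta chain of the same complex, did not pass in the infarct. CD3E had levels of −0.27, −0.54 and 0.13 against −2.33, −2.92 and −2.66 (2.41 ± 0.30, adjusted p = 4.37e-05). CD3D was 6.11-fold (2.61 ± 0.31, adjusted p = 3.24e-05) and CD3G 4.99-fold higher (2.32 ± 0.43, adjusted p = 0.00125). In remote muscle the differences were 3.14 ± 0.30, 3.00 ± 0.31 and 2.67 ± 0.43, and in sham by means 3.60, 3.57 and 3.65, for CD3E, CD3D and CD3G. None of the 3 gaps between infarct and remote passed (the nearest was CD3E at −0.73 ± 0.42, adjusted p = 0.231).

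Granulysin (GNLY), a killing protein of cytotoxic T and natural killer cells, was 20.2-fold higher on its brightest probe (4.33 ± 0.62, adjusted p = 0.000148), with 2 of 3 fetal arrays above background. A further probe read 4.78 and another −0.01. These were the 4 higher genes among 10 T and NK markers, and CD247, CD5, CTLA4, LCK, TBX21 and GATA3 did not pass. In remote muscle 7 of the 10 were higher in the adolescent, with a median of 1.39. The median of the list in the infarct was 0.65, and −0.21 with normexp, where 1 of the 10 passed. The gamma-delta receptor segment TCRD19 was 2.57 ± 0.54 higher (adjusted p = 0.00347), with 2 of 3 fetal arrays above background. The immunoglobulin kappa light chain LOC100037688 was 3.67 ± 1.06 higher (adjusted p = 0.0244), although the call ended without fetal infarct 2 or 3 or adolescent infarct 2.

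Antigen presentation had 3 of 9 genes higher. B2M, the light chain of class I molecules, stood at 6.1, 5.96 and 6.32 against 4.54, 4.32 and 5.23 (1.43 ± 0.27, adjusted p = 0.00173), with 1.20 ± 0.27 in remote muscle. The immunoproteasome subunit PSMB8 was 1.30 ± 0.32 higher (adjusted p = 0.00949). CD40, a receptor for T cell help, was 0.68 ± 0.23 higher (adjusted p = 0.0471) and lower in adolescent remote muscle (−0.85 ± 0.23). Leaving out any of the 6 infarct arrays ended the CD40 call, and fetal infarct 1 or 2 that of PSMB8.

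The cathelicidin genes BAC5, CATHL1B and CATHL3 were lower in the adolescent infarct. Cathelicidins are antimicrobial peptides stored in neutrophil granules and made by immature myeloid cells. The brightest probe of BAC5 had levels of 1.64, −0.81 and −0.92 in fetal infarct and was not well above background on any adolescent infarct array. A second BAC5 probe was above background on 1 adolescent infarct array and was lower too (adjusted p = 4.77e-05). The brightest probe was at least 84.3-fold lower in the adolescent infarct (adjusted p = 9.63e-05), where the bound sets the fetal mean against the lowest signal that counted as above background on each adolescent array. By the same measure CATHL1B (adjusted p = 5.24e-05) was at least 67.8-fold lower, and CATHL3 at least 41-fold lower (adjusted p = 0.000194). All 3 were lower in remote muscle, by 7.43 to 8.15 log2 units as fitted. Of the 7 neutrophil markers tested BAC5 and CATHL3 were lower and none was higher, and LTF (−1.36 ± 0.86) and SC5 (−2.46 ± 1.01) did not pass. The differences of ITGAM, ITGB2 and MMP9 were positive and did not pass either. Among the 4 markers above background on every array compared, none was lower, and in the deposited values 1 of 5 was higher and 1 lower. The averaged list lay between −0.89 and −0.34 in adolescent infarct and between 0.86 and 1.92 in fetal infarct. In the deposited values CATHL1B and CATHL3 missed the threshold (adjusted p = 0.0657 and 0.127).

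The globin genes HBB-fetal and HBB were lower in the adolescent infarct. The fetal beta globin, named HBB-fetal here, had levels of −6.39, −4.08 and −6.03 against 4.12, 2.69 and 3.21, the largest difference among the named genes (−8.84 ± 0.56, adjusted p = 2.7e-08), with 2 of 3 adolescent arrays above background. HBB was at −6.15, −1.69 and −4.75 against −0.02, 1.88 and 1.92 (−5.46 ± 1.34, adjusted p = 0.00963), a call that ended without adolescent infarct 1 (adjusted p = 0.0537). AHSP, the chaperone of alpha globin, was 15.5-fold lower (−3.95 ± 0.88, adjusted p = 0.00532). All 3 were lower in adolescent remote muscle. Averaged and centred in the same way as the contractile list, 4 erythroid genes lay between −1.72 and −0.90 in adolescent and between 0.54 and 0.88 in fetal infarct. The globin genes are near-identical copies and their probes may share targets, and red cell content of the samples was not measured.

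The cell division genes CDK1, CCNA2 and ASPM did not pass in the infarct and were lower in adolescent remote muscle. CDK1, the kinase that starts mitosis, had levels of 0.51, 0.67 and 0.37 in adolescent and 0.50, 0.51 and 0.47 in fetal infarct (0.02 ± 0.36, adjusted p = 0.975). In remote muscle it was 3.14 ± 0.36 log2 units lower in the adolescent (adjusted p = 8.19e-06), and the gap passed (3.16 ± 0.51, adjusted p = 0.000433). The cyclin CCNA2 gave 0.43 ± 0.40 in the infarct against −2.69 ± 0.40 in remote muscle, and the spindle protein ASPM 0.16 ± 0.56 against −3.43 ± 0.56. Measured within each age, CDK1 was 4.66 units above its remote mean in the adolescent infarct and 1.50 units above it in the fetal infarct. Of the 15 cell cycle genes the gap was positive and past the test for 8. With normexp the gap of CDK1 was 0.86 (adjusted p = 0.31), that of CCNA2 0.74 (adjusted p = 0.393) and that of ASPM −0.05, while PCNA and H2AZ1 kept theirs.

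In the infarct comparison itself, 3 of the 15 were higher and 2 lower. PCNA, the sliding clamp of DNA replication, was 1.73-fold higher (0.79 ± 0.27, adjusted p = 0.0493), H2AZ1 1.58-fold (0.66 ± 0.18, adjusted p = 0.0195) and cyclin CCND3 1.80-fold (0.85 ± 0.19, adjusted p = 0.00538). CCND2 was 2.77-fold lower (−1.47 ± 0.27, adjusted p = 0.00109), beside CDKN1C above. The PCNA call ended without any infarct array other than fetal infarct 3 (adjusted p from 0.052 to 0.237) and that of H2AZ1 without fetal infarct 1 or 2 (0.0766 and 0.0618).

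**Figure D3:**
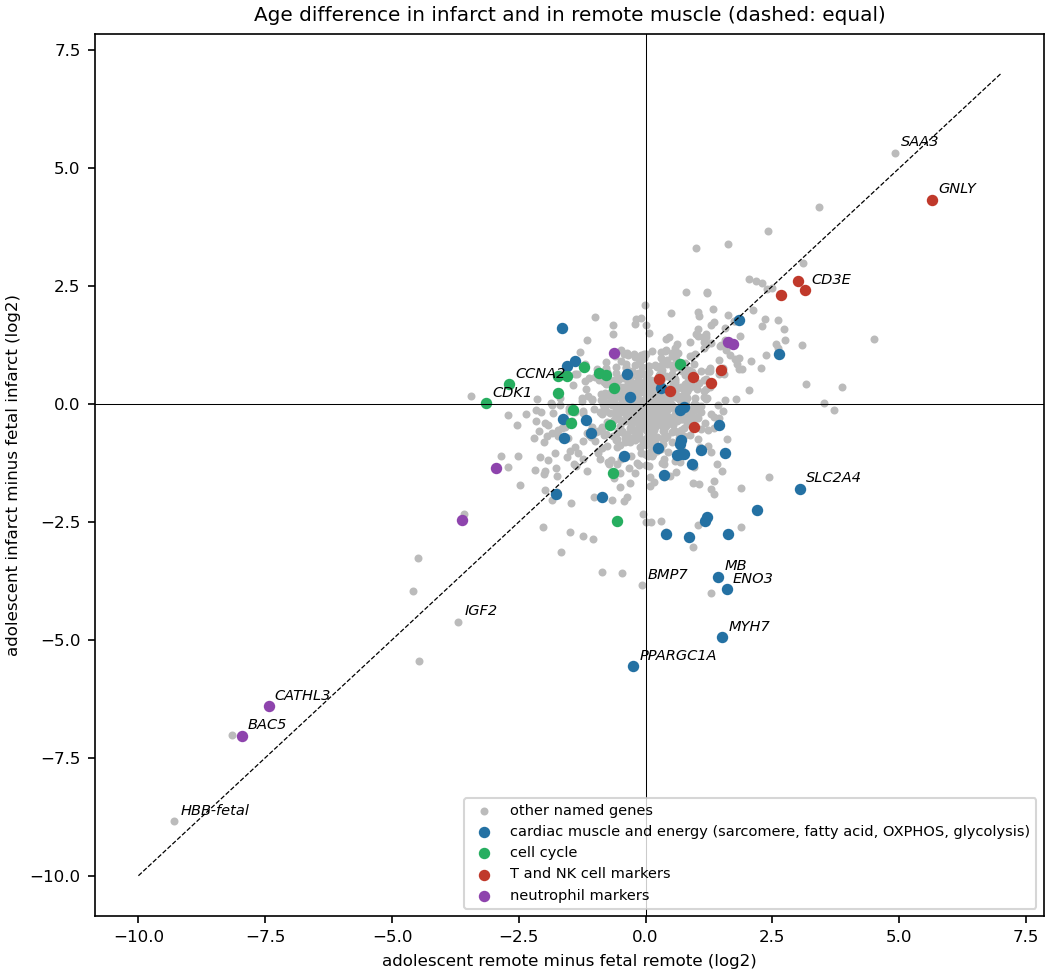
Age difference (adolescent minus fetal, log2) in infarct on one axis and in remote muscle on the other, 1 point per named gene. MYH7, ENO3 and MB lie low in infarct and above 0 in remote muscle, CDK1, CCNA2 and ASPM lie near 0 in infarct and low in remote muscle, and IGF2 and the CD3 genes lie near the diagonal.

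Other groups held few calls. None of 24 ribosomal protein genes passed in the infarct in the limma fit (1 was lower at an unadjusted p under 0.05, median −0.12, and 2 of 22 were higher in the deposited values), and 1 of 9 liver plasma protein genes was lower, APOA1 (−1.29 ± 0.39, adjusted p = 0.03), with a call that ended without adolescent infarct 1 or 3 or fetal infarct 2 or 3 (0.0604 to 0.139). Of 10 interferon response genes IFNAR1 and IFNAR2 were higher and IRF3 was lower, and neither receptor kept its call without adolescent infarct 1 or fetal infarct 2. With normexp fewer list members passed: 4 of 26 for TGF beta signalling, 1 of 19 for developmental signalling, none of 21 for vessel growth, 3 of 21 for innate sensing, none of 9 for antigen presentation, 3 of 11 for the insulin-like growth factor axis and 1 of 15 for the cell cycle.

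**Figure D4:**
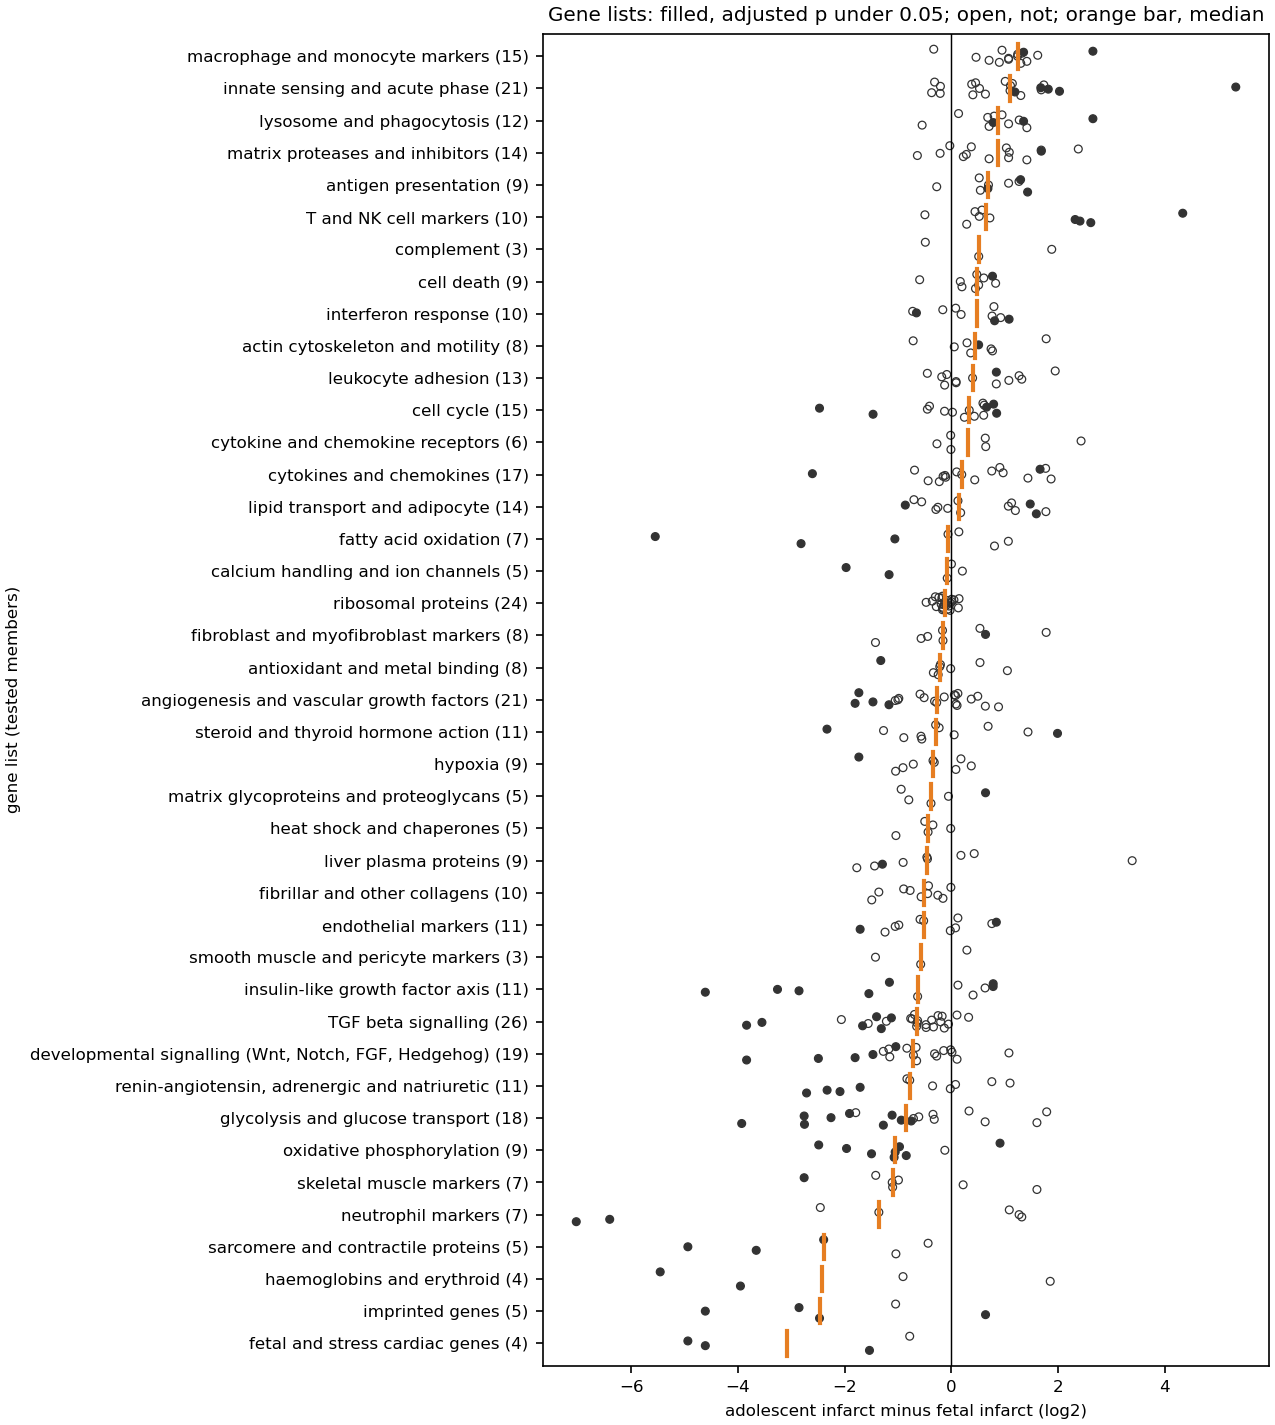
Adolescent infarct minus fetal infarct (log2) for the tested genes of each gene list, 1 row per list; filled points passed the threshold and the orange bar is the list's median. Contractile and oxidative phosphorylation genes lie mostly below 0 and macrophage markers mostly above 0. Ribosomal proteins lie close to 0, with 5 of 24 above it and a median of −0.12.

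Over the 79 named genes that were higher in the adolescent infarct, 31 were also higher in remote muscle past the test and 6 were lower there. Over the 105 lower genes, 30 were lower in remote muscle and 24 were higher. Of all named genes, 16.5% were higher and 15.4% lower in adolescent remote muscle. The gap between infarct and remote passed for 24 of the 79 and 58 of the 105, against 20.2% of all named genes. The gap contains the infarct difference itself, so the shares are not independent of it. By the sign of the mean difference alone, 53 of the 79 and 46 of the 105 had the same direction in sham, and 73 and 75 in border tissue. The same shares over all named genes were not taken, so nothing is read from these sign counts.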

How the data were processed

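Total RNA of infarct, border, remote and sham ventricle was hybridised to 23 Agilent ovine arrays in 8 groups. Intensities are the scanner's processed signal, background-subtracted by Agilent Feature Extraction 10.1.1.1, per the file headers. The authors also deposited a table of log2 values for 8411 probes, made with limma per the submitters' processing notes. Its normalisation is not given in the sources used here, its array medians lie between 9.267 and 9.305, and it served as an alternative.

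Control spots (536 of 15744) were left out, and log2 intensity was taken minus each array's 75th percentile. Probes above background on at least 2 arrays of a group were tested (12451 of 15008), with limma 3.58.1 in R 4.3.3 (lmFit, eBayes, 15 residual degrees of freedom, two-sided, all 23 arrays, Benjamini-Hochberg over all tested probes). The arrays' number limits precision. Tested on simulated data for the infarct comparison (200 changed probes), the fit found 84% of 4-fold and 37% of 2-fold changes, with 9 false calls among 130.

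Names came from the array annotation and RefSeq accessions, for 1704 probes. Each gene is its brightest tested probe. Named in the text are the 12 highest and 12 lowest passing differences with 1 sign on all 3 slides, the 6 highest and 6 lowest gaps to remote muscle, up to 4 members per gene list ranked on the moderated t, plus a preset group. Of the list members outside this rule, PFKM, GAPDH, SLC25A5, IGFBP4, IGFBP6, TGFB2, ACVR1, WNT5A, PTX3 and those given as not passing were chosen after their values were seen. The members and the lists were chosen with earlier results of these data known. Alternatives were another background correction, 2 scalings, the deposited values, filters, the slide as a block, fewer groups, array weights, another variance model and leaving out each array. One result of the alternatives is not reported here.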

Additional observations from a re-analysis of the deposited data

Results flagged for a closer look

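The genes looked at here were named by rank or in the preset group, and not only as members of a list. Among them, 17 passed the interaction contrast of the limma fit (adjusted p from 0.000143 to 0.0106). That contrast sets the age difference in the infarct against the age difference in remote muscle, and is the gap used above. ASPM, FBP2, CDK1, CCNA2, LOC100191065 and PMCH were named for having the highest gaps. MYH7, ENO3, PPARGC1A, PRKAA2, MB and SLC2A4 were named for having the lowest. Of these, MYH7, PPARGC1A, SLC2A4 and CDK1 were in the preset group as well. The choice of genes thus partly set the count of 17 and its range of adjusted p. The values are the infarct difference minus the remote difference, adolescent minus fetal, in log2 units, with 3 arrays in each of the 4 groups.

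Muscle and energy genes had negative values. They were −6.45 for MYH7, −5.53 for ENO3, −5.30 for PPARGC1A and −5.30 for PRKAA2. MB had −5.09, SLC2A4 −4.83 and CPT1B −3.67. The ligand BMP7 had −3.77.

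Genes of cell division had positive values, of 3.60 for ASPM, 3.16 for CDK1, 3.12 for CCNA2, 2.31 for TYMS, 2.15 for CCNB1 and 2.01 for PCNA. The other three were FBP2 at 3.25, LOC100191065 at 2.51 and PMCH at 2.49. FBP2 is a fructose bisphosphatase of muscle and PMCH the precursor of a hypothalamic peptide. FBP2 was not well above background on any fetal infarct array, so its value is a fitted one and not a measured size. With normexp the values of FBP2 (−1.47), PMCH (−0.78) and ASPM (−0.055) turned negative. Among all 861 named genes this contrast passed for 174, a count that also holds members of lists. In the adolescent remote arrays, signal overall was dimmer than in the fetal ones (306.8 to 374.5 against 489.7 to 681.6), and the part of this in the 17 values was not tested.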

How the results depend on the processing

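In the infarct comparison the count of 2171 probes became 363 with normexp, 275 with normexp without an offset, 1039 in a fit of only the compared groups and 3397 with array weights. Leaving out 1 array gave 1141 to 2396, with 1165 without fetal infarct 1, 1141 without fetal infarct 2 and 1360 without adolescent infarct 3. Quantile scaling gave 2065 and no filter 1852. The remote count of 3882 became 491 with normexp and 402 without its offset (2939 to 3383 leaving out 1 array). The count of 2647 for the gap became 269 and 210 (2042 to 2570). The share of higher calls in the infarct, 40.0%, was 26.4% with normexp, 49.3% with median centring and 56.9% in the deposited values (1197 higher and 907 lower). For the gap it was 41.8%, and 19.7% with normexp. Normexp shifted the median of all probes by −0.26 in the infarct, 0.47 in remote muscle and −0.68 in the gap, and its median residual SD was 0.56 against 0.36. The cause was not tested.

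Same-numbered infarct arrays shared a slide, and their deviations correlated at 0.0243 to 0.0412. Those of same-numbered remote arrays correlated at 0.217, 0.227 and −0.0267 on slides 1 to 3. The main fit did not pair samples by these numbers. A replicate block in the fit gave 2481 passing probes in the infarct, 4227 in remote muscle and 2925 in the gap, and no infarct or gap call among the followed genes was lost, while 15 were gained in the infarct and 3 in the gap.

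In the alternatives that tested them, 22 of 85 followed infarct calls never changed, 241 of 1420 values missed the threshold and 2 reversed. For 50 followed gaps 124 of 1133 values missed it and 6 reversed. EM4e reversed in the infarct to −0.31 with normexp and −0.0756 without its offset. Among the gaps ASPM became −0.055, FBP2 −1.47 and −1.52, PMCH −0.78 and −0.27, and CXCR4 −0.34 with normexp. Values that missed the threshold both ways changed sign 34 times in the infarct and 181 times in the gap. Normexp without an offset and the recounts of gene lists under each alternative were chosen after seeing the data. For the brightest probes of 6 lower and 2 higher called genes the fold is a bound.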

Other observations

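Some gene groups outside the account above held a few called genes in the limma fit. The differences below are adolescent infarct minus fetal infarct in log2 units with SE, 3 arrays a side. Among 14 genes of lipid transport and fat cells, PLIN2, a coat protein of lipid droplets, was higher (1.48 ± 0.41, adjusted p = 0.0205) and CEBPB, a transcription factor of inflammation and fat cell formation, was higher (1.59 ± 0.35, adjusted p = 0.00499). PLIN1, the droplet coat of mature fat cells, was lower (−0.86 ± 0.27, adjusted p = 0.0337). The calls of PLIN1 and PLIN2 each ended without fetal infarct 1, fetal infarct 2, adolescent infarct 1 or adolescent infarct 3, and that of PLIN1 also without fetal infarct 3. TXNIP, which binds thioredoxin and is induced by glucose, had levels of 2.56, 2.35 and 2.43 in adolescent infarct and 4.33, 3.87 and 3.11 in fetal infarct. It was lower (−1.32 ± 0.37, adjusted p = 0.0204) except without fetal infarct 1, fetal infarct 2 or adolescent infarct 3 (adjusted p from 0.0566 to 0.109), and was the 1 called gene of 8 in its list. The survival factor MCL1 (0.77 ± 0.24, adjusted p = 0.0372) was the 1 higher gene among 9 of cell death, with a call that ended without any infarct array other than adolescent infarct 2 or fetal infarct 3.

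XDH, which makes uric acid from purines, stood at −3.50, −1.88 and −1.87 against −6.22, −4.95 and −5.99, with 1 of 3 fetal arrays above background. It was 3.30 ± 0.70 higher (adjusted p = 0.00387), against 0.99 ± 0.70 in remote muscle (adjusted p = 0.311), and the gap did not pass (2.31 ± 1.00, adjusted p = 0.107). A lysozyme named in the annotation by LOC443321 had levels of 5.29, 3.66 and 4.36 against −1.66, 0.11 and 2.34. It was 4.17 ± 1.20 higher (adjusted p = 0.024), except without fetal infarct 1, fetal infarct 2, adolescent infarct 1 or adolescent infarct 3 (adjusted p from 0.0608 to 0.126).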
